A study of Mus musculus with 12 samples.

Results

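Among 532 stretches of the genome for which coverage was deposited, 2 long ones matched no short RNA gene and stood out in a polymerase or histone signal: chr9:46080610-46081261, at the start of Zfp259, and chr6:128709861-128711030, whose nearest gene start is that of Klrb1c. They were chosen by measured values, very high RNA polymerase II coverage for Zfp259 and very high coverage in the libraries titled H3K4 for Klrb1c. Those values are therefore descriptions here and carry no test, while the other libraries and the positions inside the stretches were not used in the choice. The study used chromatin immunoprecipitation with sequencing on liver from C57/BL6 males of 12 to 14 weeks, held for 2 weeks in 12 h light and 12 h dark and then for 7 days with food only in the dark hours. Livers came from 5 mice at 2 h after lights on and, as the replicate, from 5 mice at 26 h; which replicate number is which time, and whether livers were pooled, is not given in the sources used here. No group differed in genotype or treatment.

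The 12 libraries form 6 groups of 2. RPC1 is the largest subunit of RNA polymerase III (Pol III) and RPC4 is a subunit found in Pol III only, both bound with antibodies made by the submitters. RPB2 belongs to the catalytic core of Pol II, RNA polymerase II. Input is chromatin that was not immunoprecipitated. The histone libraries go against their own labels. The antibody given for those with H3K4 in the title is H3K36me3, and for those with H3K36 it is H3K4me3. Titles and track headers agree, so the names H3K4-titled and H3K36-titled follow them. P-values measure the spread between libraries only, which may be technical.

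Pol III makes short RNAs such as tRNAs, 5S rRNA and U6, and it can also be recruited by short interspersed repeats (SINEs) whose internal promoter holds an A box and a B box. Pol II makes messenger RNAs. Trimethylation of H3K4 marks active promoters, and that of H3K36 lies over the bodies of genes that Pol II transcribes. The labels state liver, whose main cell is the hepatocyte. The stretches cannot check this, since 0 of 7 hepatocyte genes and 0 of 5 annotated immune genes had a stretch within 1000 bp of their start.

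The Zfp259 stretch is 652 bp long in the mm9 build. Zfp259 (ENSMUSG00000032078.9, plus strand, chr9:46081147-46090726) encodes a zinc finger protein, and its annotated start is base 538 of the stretch. The last 115 bases lie in exon 1, within the 5′ UTR, and the rest is intergenic. Another annotated transcript of Zfp259 starts at base 650. Distances to the annotated start are given here from base 538 only. Apoa5, a regulator of plasma triglycerides, ends 608 bp to the left. Apoa4, Apoc3 and Apoa1, which encode apolipoproteins of the same cluster, Gm10680, Bud13 and 4931429L15Rik also lie within 50 kb.

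The Klrb1c stretch is 1170 bp long, the longest of the 532, whose median was 373 bp. It overlaps no annotated gene. The start of Klrb1c, which encodes a receptor of natural killer cells, lies 28203 bp to its right, and Klrb1 lies 36797 bp to its left. These are the 2 genes with a start within 50 kb.

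Repeated sequence fills a large part of the Zfp259 stretch, with 296 of its 652 bases outside repeat blocks. It fills less of the Klrb1c stretch, with 855 of its 1170 bases outside them. Blocks were defined as runs of 20-base words found at least 10 times in mm9, and no repeat annotation was used, so the blocks were not assigned to a repeat family. The Zfp259 stretch holds a block of 206 bp (bases 29 to 234, median of 104 copies per word) and another of 150 bp (bases 345 to 494, median of 69 copies). They lie on the same strand and were identical at 130 of 155 aligned columns (83.9%). Both are shown because Pol II and Pol III coverage rises over the first block and is high between the blocks. Over the second block Pol II coverage dips and mean Pol III coverage falls. The capitals mark the repeat blocks, on the plus strand of mm9, and the second line ends at the base before the annotated start:

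Zfp259, chr9:46080610-46080846: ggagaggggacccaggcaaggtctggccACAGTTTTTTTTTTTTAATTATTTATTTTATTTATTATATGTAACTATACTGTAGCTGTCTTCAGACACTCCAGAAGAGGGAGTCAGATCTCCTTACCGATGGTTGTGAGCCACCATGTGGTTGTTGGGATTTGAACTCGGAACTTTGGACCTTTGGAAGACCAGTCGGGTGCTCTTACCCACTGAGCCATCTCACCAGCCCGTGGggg

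Zfp259, chr9:46080847-46081146: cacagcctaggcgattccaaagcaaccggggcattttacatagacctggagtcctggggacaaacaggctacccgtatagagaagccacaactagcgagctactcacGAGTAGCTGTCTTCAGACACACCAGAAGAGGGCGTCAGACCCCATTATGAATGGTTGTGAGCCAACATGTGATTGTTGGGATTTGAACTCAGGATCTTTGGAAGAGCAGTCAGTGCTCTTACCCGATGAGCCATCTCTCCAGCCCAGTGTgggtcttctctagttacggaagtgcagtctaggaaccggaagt

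The Klrb1c stretch holds repeat blocks at bases 8 to 98, 258 to 338 and 802 to 944. The last of these is flanked on its right by the highest Pol II coverage of the stretch, and the block at 258 to 338 by the left of its 2 Pol III peaks. The windows around both peaks are shown with the repeat blocks in capitals. The third line is from another long stretch 2706 bp further right (970 bp, chr6:128713737-128714706), whose single block of 73 bp was identical at 73 of 73 bases to part of the block at 802 to 944:

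Klrb1c, left peak, chr6:128710091-128710300: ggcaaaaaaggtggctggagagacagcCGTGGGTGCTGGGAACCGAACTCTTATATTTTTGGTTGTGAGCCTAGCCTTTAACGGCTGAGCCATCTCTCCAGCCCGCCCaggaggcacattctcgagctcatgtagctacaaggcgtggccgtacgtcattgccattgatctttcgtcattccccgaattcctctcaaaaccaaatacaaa

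Klrb1c, right peak, chr6:128710661-128710890: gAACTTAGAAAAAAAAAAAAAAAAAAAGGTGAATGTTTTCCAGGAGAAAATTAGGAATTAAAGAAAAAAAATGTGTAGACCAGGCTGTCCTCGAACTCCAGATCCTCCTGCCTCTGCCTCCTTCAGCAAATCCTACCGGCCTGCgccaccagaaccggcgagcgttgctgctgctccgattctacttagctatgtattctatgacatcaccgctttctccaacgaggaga

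Neighbouring stretch, chr6:128714127-128714336: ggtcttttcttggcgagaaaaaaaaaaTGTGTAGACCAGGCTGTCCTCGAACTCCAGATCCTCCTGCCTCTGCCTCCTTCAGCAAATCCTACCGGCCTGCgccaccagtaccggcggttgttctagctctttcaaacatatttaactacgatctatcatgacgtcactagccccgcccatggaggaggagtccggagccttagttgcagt

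At Zfp259, Pol II coverage was far above that of Pol III. Mean coverage over the stretch is the number of reads per base. It was 161.7 and 130.8 in the RPB2 libraries, the second highest of 442 regions (a region joins stretches that lie less than 1000 bp apart). The region above it had 169.1 and the region below it 83.4, against a median of 1.84. RPC1 libraries had 5.09 and 2.63, and RPC4 libraries 5.31 and 6.08, so that all 4 Pol III libraries lay below both RPB2 libraries. Input had 1.05 and 0.816, below every Pol III library. In rank, Pol III coverage at Zfp259 was 270th of 442, and its mean of 4.78 ± 1.49 (SD, n = 4) was under the median region's 9.26.

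H3K4-titled coverage at Zfp259 was 7.89 and 11.4, rank 72 of 442. H3K36-titled coverage was 0.466 and 0.117, which is 4 reads and 1 read, and input held 9.03 and 7 read equivalents of 76 bp. RPB2 libraries held 1387 and 1122 read equivalents, spread over 254 and 265 positions where coverage rises, with a largest single rise of 10 reads. All coverage values of the stretch were whole numbers, within 1e-06.

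At Klrb1c coverage as deposited, which is not scaled for depth, was higher for Pol III than for Pol II. Pol III coverage was 85.9 and 59.7 for RPC1 and 84.6 and 83.0 for RPC4, a mean of 78.3 ± 12.4 (SD, n = 4) and rank 95 of 442. RPB2 coverage was 19.2 and 18.5, rank 17. All 4 Pol III libraries lay above both RPB2 libraries. That order depends on the scaling, and the scaled values are given with the fits against input. H3K4-titled coverage was 66.1 and 84.2, rank 5 of 442, between regions at 89.0 and 59.2. H3K36-titled coverage was 0.130 and 0.178, and input 0.970 and 0.941, the lowest of the 6 groups being the H3K36-titled one.

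**Figure D1:**
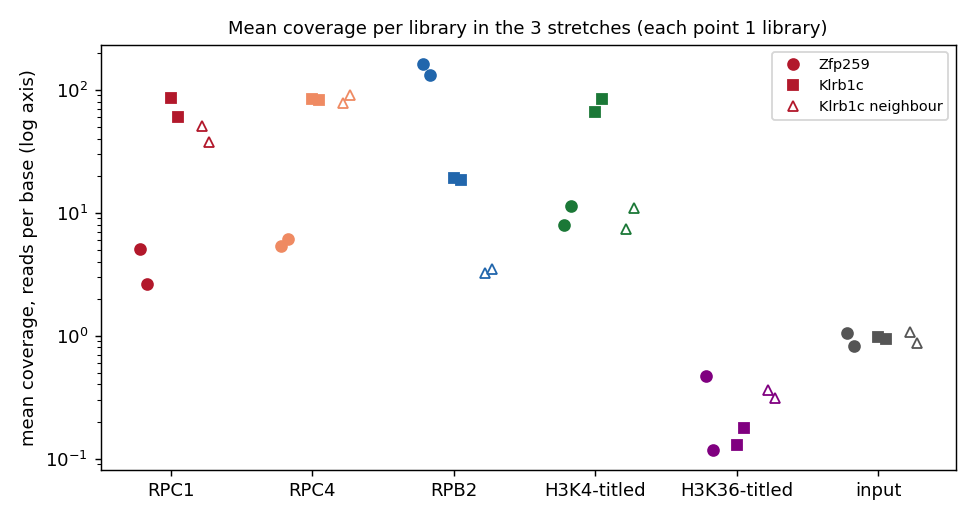
Mean coverage in reads per base (log axis) of each library, 1 point per library, at Zfp259 (circles), Klrb1c (squares) and the neighbouring stretch (open triangles). RPB2 lies above Pol III at Zfp259 (146.3 against 4.78) and, in this unscaled coverage, below it at Klrb1c (18.9 against 78.3), an order that turns with scaling by file totals or median of ratios.

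Levels were compared with input by limma on the log2 scale over 397 regions, after each library was divided by its background, the trimmed mean over the 25% of regions where Pol III coverage was lowest. By this scaling Pol III was above input at Zfp259, by 2.20 ± 0.37 (log2, SE; limma adjusted p = 0.000106625). That direction depends on the scaling, and the background regions were themselves picked for low coverage in the Pol III libraries, which favours it. With libraries scaled by file totals, Pol III was below input, at -2.70 (adjusted p = 0.000445), and with median-of-ratios scaling at -1.48 (adjusted p = 0.00823). As a background, 71.5% of regions were called higher for Pol III by the first scaling and 0% lower; by file totals it was 21.2% higher and 54.2% lower, and by median of ratios 28.5% and 35%. At Klrb1c, Pol III was 6.19 ± 0.29 above input (limma adjusted p = 4.58e-10), and it was also higher with file totals (1.17, adjusted p = 0.0048).

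RPB2 at Klrb1c was 4.34 ± 0.34 above input (log2, SE; limma adjusted p = 1.10e-06), and 2.24 with file totals (adjusted p = 0.00279). Of all regions, 40.3% were called higher and 0.252% lower for RPB2 by the background scaling, and 6.55% higher and 33% lower with file totals. Relative to input, Pol III thus stood above RPB2 at Klrb1c by the background scaling (6.19 and 4.34) but below it with file totals (1.17 and 2.24) and with median of ratios (2.39 and 3.19). The difference between the 2 polymerases was not tested. At Zfp259 the fitted RPB2 difference was 7.30, which describes the value that chose it. The H3K4-titled libraries at Zfp259 were 6.26 ± 0.43 above input (adjusted p = 2.22e-08), where 65% of regions were called higher and 4.79% lower. The background by which libraries were divided was 0.0652 and 0.112 for H3K4-titled and 0.775 and 0.933 for input. With coverage as deposited the H3K4-titled difference at Zfp259 was 3.15. With file totals that difference was 0.72 (adjusted p = 0.182), when 11.1% were called higher and 61.2% lower. At Klrb1c the fitted H3K4-titled difference was 9.20, again a description.

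The H3K36-titled libraries did not pass the test against input at Zfp259 (-0.22 ± 0.43, adjusted p = 0.775) or at Klrb1c (-0.70 ± 0.34, adjusted p = 0.208). Each of these libraries held 1 to 4 reads at either stretch. The call depends on the scaling: with file totals they were lower than input at Klrb1c (-1.39, adjusted p = 0.0138). With coverage as deposited they were lower at both, at -1.39 for Zfp259 (adjusted p = 0.0104) and -1.84 for Klrb1c (adjusted p = 0.00068). By the background scaling, 4.03% of regions were called higher and 8.82% lower for these libraries, with file totals 4.28% and 18.9%, and with coverage as deposited 3.02% and 69.5%. RPC1 and RPC4 did not pass the test against each other either, at Zfp259 (-0.22 ± 0.43, adjusted p = 0.968) or at Klrb1c (0.18 ± 0.34, adjusted p = 0.968), and 0% of all regions were called.

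**Figure D2:**
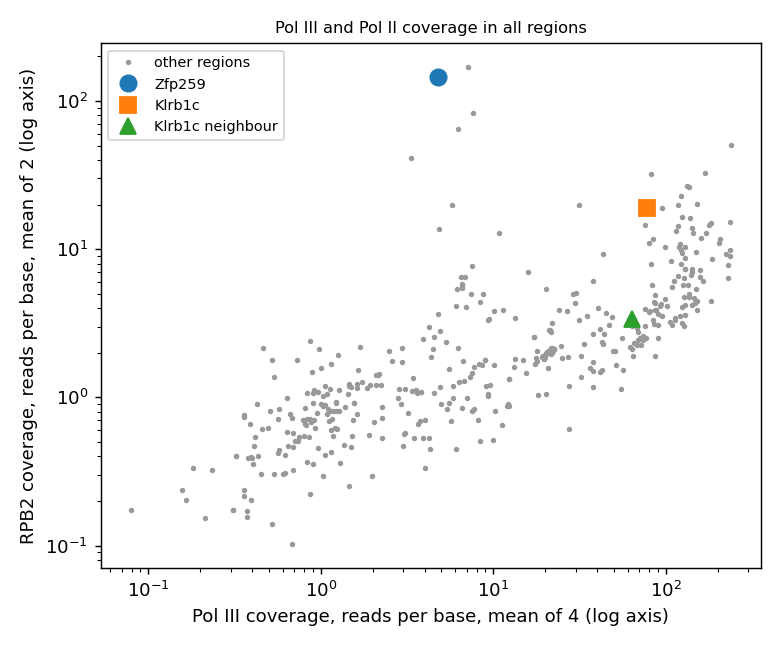
Pol III coverage (x, mean of 4 libraries) against RPB2 coverage (y, mean of 2) in reads per base, both on log axes, for 442 regions. Zfp259 lies at the top with Pol III of 4.78 and RPB2 of 146.3, and Klrb1c at the upper right with 78.3 and 18.9.

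Inside the Zfp259 stretch, Pol II formed 2 humps before and at the annotated start. RPB2 coverage averaged 223.8 in bases 251 to 300, fell to 161.2 in bases 401 to 450 and was 234.7 in bases 501 to 550, the bin that holds the start. The replicates differed most in the dip, at 202 and 120.3. The highest single bases were 12 and 13 bp before the start, at 278 and 224 reads, and the left hump reached 260 and 215 reads at bases 277 and 285. Both humps lie just right of a repeat block, the left one between the blocks and the right one between the second block and the gene. RPB2 coverage was 17.2 in the first 50 bases and 104.2 in bases 601 to 650, so the stretch ends while Pol II is still well above input inside exon 1.

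Pol III showed this paired shape at Zfp259 in 1 of 4 libraries. RPC1 replicate 1 had 8.70 in bases 251 to 300, 4.26 in bases 401 to 450 and 9.14 in bases 501 to 550. The average over the 4 libraries peaked broadly at 8.47 ± 3.53 (SD, n = 4) in bases 301 to 350, and it was 5.02 ± 3.09 at the start, where Pol II was highest. The libraries placed their highest base differently, at 12 bp after the start in RPC1 replicate 1, and 168, 122 and 339 bp before it in RPC1 replicate 2, RPC4 replicate 1 and RPC4 replicate 2. Those maxima were 12, 8, 14 and 16 reads, so each rests on few reads. Bases 218 to 435 held 54.6% ± 15.6 of RPC1 coverage and 59.4% ± 3.48 of RPC4 coverage, against 44.3% ± 1.25 of RPB2 coverage (SD, n = 2 each). Over the 14 bins the mean Pol III and RPB2 profiles had a Pearson correlation of 0.841, as a description across bins of the same stretch.

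The base that splits each library's coverage evenly, its median position, was 173 and 175 bp before the start for RPC1, 159 and 236 bp for RPC4, 154 and 156 bp for RPB2, and 164 and 150 bp for the H3K4-titled libraries. All 4 Pol III values lay further from the gene than both RPB2 values. Such values also did not overlap, in either direction, in 14 of 29 other stretches of 600 bp or longer. The mean difference was -30.75 bp with an SE of 51.5, which did not pass limma over 250 stretches (adjusted p = 0.869). It was -11.5 bp without RPC4 replicate 2, -50 bp without RPC4 replicate 1 and, by the smoothed maximum, -140 bp (adjusted p = 0.496). The two-sided exact permutation test of 4 libraries against 2 gave p = 0.1333, the smallest it can give (0.3556 adjusted over 8 such tests). Of all stretches, 1.2% were called in each direction. The H3K4-titled position differed from RPB2 by -2 bp (SE 59.4, adjusted p = 0.974; -174.5 bp by the smoothed maximum, adjusted p = 0.203), with 15.2% of stretches called to the right and 15.6% to the left.

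H3K4-titled coverage at Zfp259 rose to 18.7 ± 6.28 in bases 301 to 350 and was 9.83 ± 1.60 in bases 401 to 450 (SD, n = 2). In the gene, at bases 551 to 600, the replicates read 3.82 and 15.1. Input had its highest bins at bases 151 to 250 (2.54 and 2.66), mostly inside the left repeat block. In coverage as deposited, all 4 Pol III libraries were above both input libraries in bases 251 to 300, at 4.66 to 13.5 against 0.48 and 1.08. The same held in each bin from there to base 600. The 2 groups overlapped in bases 151 to 200 (1.16 to 9.36 against 1.40 and 3.68) and 201 to 250 (3.36 to 14.3 against 1.32 and 4).

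**Figure D3:**
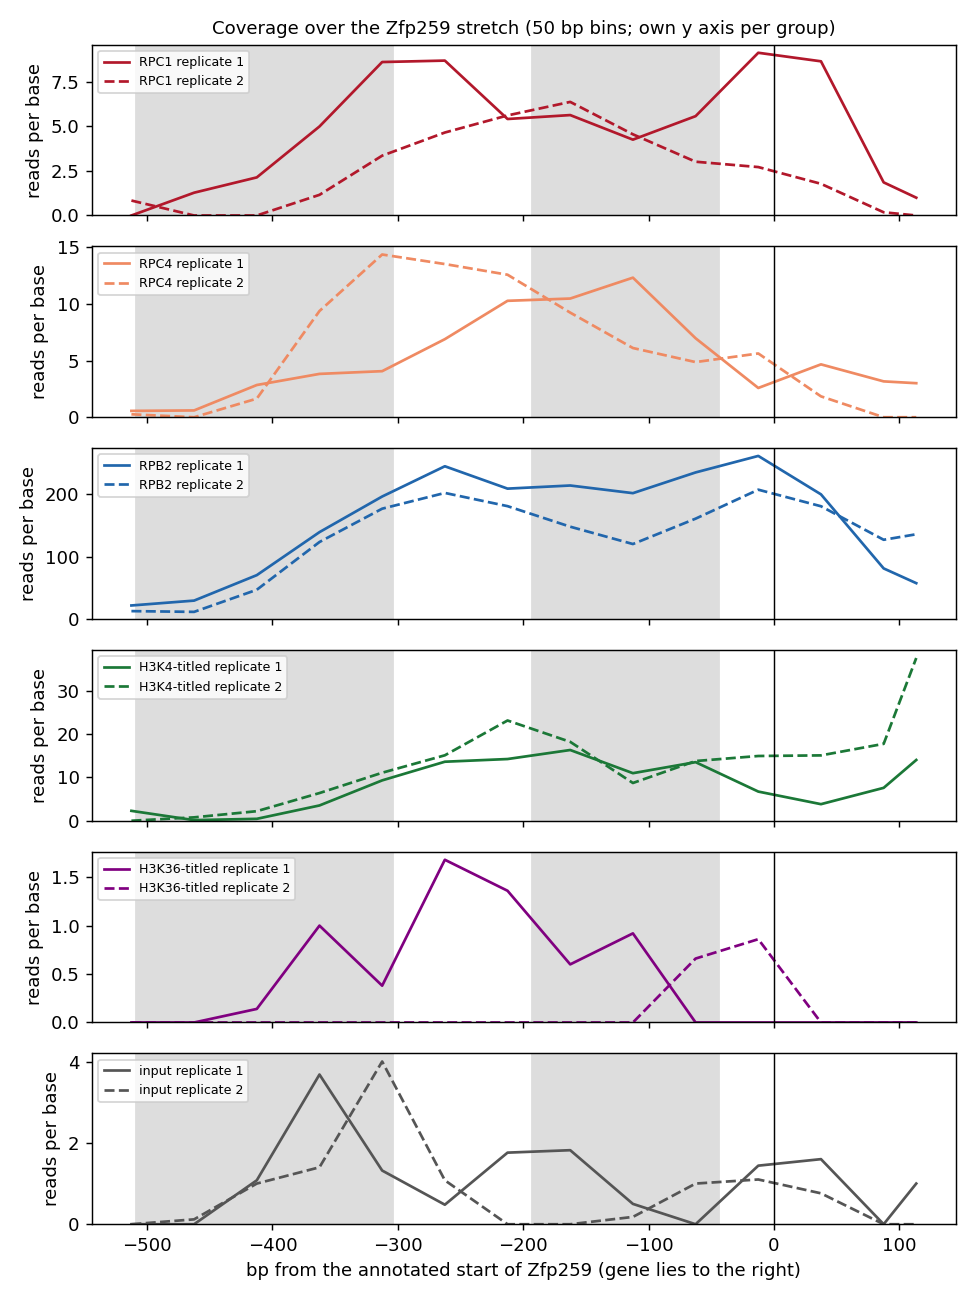
Coverage (y, reads per base, 50 bp bins, a separate axis per group) against distance in bp from the annotated start of Zfp259 (vertical line), with replicate 1 solid, replicate 2 dashed and repeat blocks shaded. RPB2 shows humps of 223.8 and 234.7 with a dip of 161.2 between them, and the 4 Pol III lines differ in shape.

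Inside the Klrb1c stretch, Pol III formed 2 tall, narrow peaks about equal in height, while Pol II lay mostly at the right one. After smoothing over 51 bp, the left Pol III maximum stood at bases 380, 370, 368 and 368 in RPC1 replicates 1 and 2 and RPC4 replicates 1 and 2, and the right one at 992, 983, 976 and 987. The left maxima reached 289, 171, 241 and 190 reads and the right ones 291, 229, 265 and 247. Between them smoothed coverage fell to 3.42, 3.93, 10.5 and 8.05 reads. The valley lay far below both peaks in each of the 4 libraries.

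RPB2 had its highest bin at the right peak, 83.2 ± 8.92 in bases 951 to 1000 (SD, n = 2), where Pol III averaged 235.5 ± 20.3 (n = 4). At the left peak, bases 351 to 400, RPB2 was 24.2 ± 7.18 and Pol III 206.1 ± 47.7. Coverage right of the stretch's midpoint over that left of it was 2.74 and 3.02 in the RPB2 libraries and 0.983, 1.14, 1.08 and 1.16 in the Pol III libraries. The groups did not overlap, and the exact permutation test on the log2 ratios (1.53 against 0.12) gave p = 0.1333, the smallest possible here (adjusted p = 0.3556 over 8 tests). At Zfp259 the same ratios overlapped (p = 0.933 in the exact permutation test).

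RPB2 stayed near its left-peak level further to the right than Pol III did. In bases 501 to 550 RPB2 was 18.1 ± 3.10, close to its left peak, and Pol III 15.4 ± 6.69. The smallest RPB2 bin between the peaks was 4.02 ± 0.849, in bases 751 to 800. The RPB2 replicates placed their left maximum at different bases, 389 and 522 after smoothing. Bases 391 to 780 held 22.5% ± 2.82 of RPB2 coverage, against 17.7% ± 1.94 for RPC1 and 14.9% ± 0.901 for RPC4 (SD, n = 2 each).

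H3K4-titled coverage filled the valley between the Pol III peaks. It was 250.4 ± 25.6 in bases 651 to 700 (SD, n = 2), where Pol III was 11.0 ± 7.23 (n = 4), and its highest bases were 675 and 679, at 249 and 299 reads. It was 8.94 ± 1.92 in bases 851 to 900, over the right repeat block, and rose again to 148.2 ± 45.9 in bases 1001 to 1050. Left of base 200 no bin exceeded 0.08 in either library, although Pol III already had 50.3 ± 19.8 in bases 151 to 200. Bases 391 to 780 held 70.6% ± 3.47 of H3K4-titled coverage and bases 1 to 390 held 1.38% ± 0.864. Across the 24 bins the Pearson correlation with Pol III was -0.270 for the H3K4-titled profile and 0.757 for RPB2.

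In the repeat blocks of the Klrb1c stretch, H3K4-titled coverage averaged 3.63 and 6.27 reads per base, against 89.1 and 113 outside them. The Pol III libraries had no split of that size. RPC1 had 71.8 and 58.8 inside and 91.1 and 60.1 outside, while RPC4 had 98.8 and 95.9 inside and 79.3 and 78.2 outside. The blocks at bases 8 to 98 and 258 to 338 lie in the left part of the stretch. H3K4-titled coverage was low there outside the blocks too, at 0.04 in bases 151 to 200 and 1.165 in bases 201 to 250. Reads can also be placed less surely in repeats. The parts of position along the stretch and of read placement in the H3K4-titled values were not tested.

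**Figure D4:**
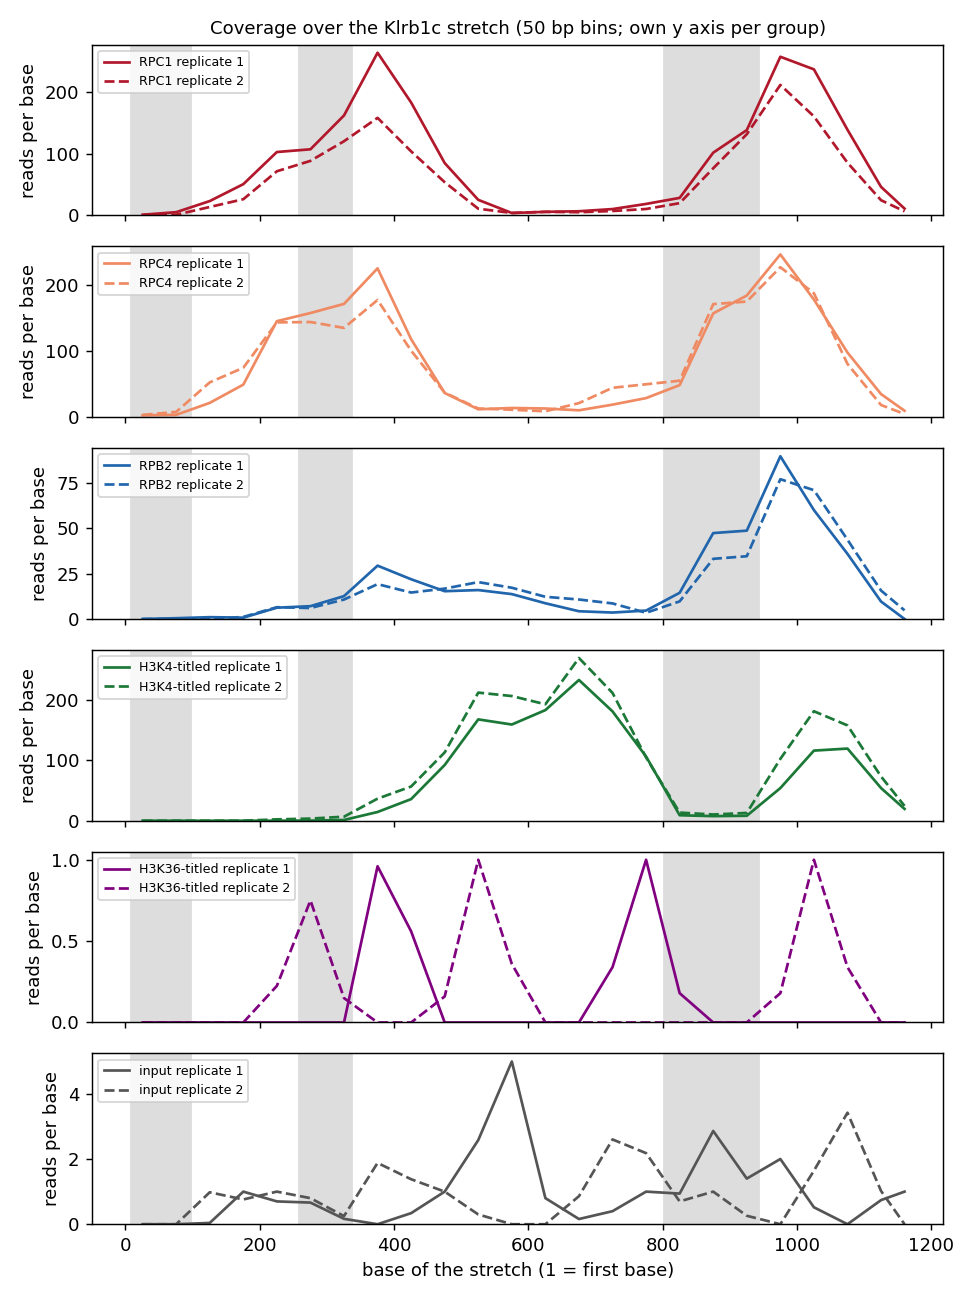
Coverage (y, reads per base, 50 bp bins, a separate axis per group) along the Klrb1c stretch (x, base of the stretch), with replicate 1 solid, replicate 2 dashed and repeat blocks shaded. Pol III peaks near bases 370 and 985, RPB2 is highest at the right peak (83.2), and H3K4-titled coverage (250.4) lies between the peaks.

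Median positions at Klrb1c were bases 529 and 844 for RPC1, 731 and 746 for RPC4, 921 and 942 for RPB2, and 676 and 680 for the H3K4-titled libraries. With 2 peaks, a small change in their heights moves this base across the valley, and the RPC1 replicates differ by more than the groups do. The Pol III position was -219 bp from that of RPB2 (SE 79.1), without overlap, as in 14 of 29 other stretches of 600 bp or longer. It did not pass limma (adjusted p = 0.268), and the exact permutation p was 0.1333, again the smallest possible. The coverage-weighted mean position differed by -156.2 bp and passed (adjusted p = 0.00399), when 1.6% of stretches were called to the right and 3.2% to the left. The position of the smoothed maximum differed by only -4 bp (adjusted p = 1). In all 6 Pol III and RPB2 libraries the right peak was the higher one after smoothing. Without RPC1 replicate 2 the median position passed (-297.75 bp, adjusted p = 0.0469). The H3K4-titled position was -253.5 bp from RPB2 (SE 91.4, adjusted p = 0.0672), a difference that passed under 6 other settings, 2 of them without an RPC1 library.

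Other stretches of 600 bp or longer, 31 in all, gave a scale for these values. Their median coverage was 75.8 for Pol III, 3.09 for RPB2 and 6.44 for the H3K4-titled libraries. Pol III at Zfp259 was lower than in 27 of the 31, and RPB2 was higher there than in any of them (highest 64.4). At Klrb1c, 15 of the 31 had more Pol III, 1 had more RPB2 and 2 had more H3K4-titled coverage. In 29 of them the Pol III position could be set against that of RPB2. The differences ran from -176.5 to 132.2 bp, with a median of 6.5 bp, and in 14 of the 29 the positions did not overlap. No difference was as large in bp as the -219 bp at Klrb1c. That stretch, at 1170 bp, is also the longest, and the -176.5 bp lay in a stretch of 750 bp.

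The Klrb1c stretch was 1 of 6 deposited regions within 100 kb, none of them overlapping an annotated gene. The others shared sequence with it to differing degrees. This group was singled out after its values had been seen. The regions come as pairs of a long and a shorter region: Klrb1c with the neighbour 2706 bp away, a middle pair at chr6:128748702-128749809 and chr6:128752863-128753366, and a far pair at chr6:128788286-128789346 (2 stretches merged) and chr6:128792926-128793580. The long region of the middle pair matched bases 77 to 1170 of the Klrb1c stretch on the same strand, at 87.0% of 1128 aligned columns. That of the far pair matched bases 141 to 1119 on the opposite strand, at 62.6% of 1090 columns. The neighbour matched the shorter region of the middle pair at 86.3% of 495 columns. To the Klrb1c stretch itself, the neighbour and the shorter regions of the middle and far pairs matched at 59.8%, 62.4% and 62.5% of aligned columns. No chance level was computed for these matches. The shared sequence includes the neighbour's repeat block of 73 bp, whose words have a median of 88 copies in mm9.

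The window of the middle pair that corresponds to the right peak of Klrb1c is shown because Pol II differed most there. Capitals mark its 11 substituted and 2 extra bases relative to Klrb1c, and 13 bases of the Klrb1c stretch have no partner in it:

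Middle pair, chr6:128749412-128749630: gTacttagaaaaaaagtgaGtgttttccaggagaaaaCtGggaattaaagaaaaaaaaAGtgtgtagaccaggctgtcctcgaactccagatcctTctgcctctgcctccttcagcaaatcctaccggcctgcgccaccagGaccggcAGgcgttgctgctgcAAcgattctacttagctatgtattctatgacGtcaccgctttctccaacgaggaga

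In coverage as deposited, Pol III was above the median region's 9.26 in all 6 regions, and RPB2 was above its median of 1.84 in all 6. Mean Pol III coverage was 63.8, 98.8, 126.1, 84.4 and 121.2 in the other 5, in order along the chromosome, and 4 of the 5 were above Klrb1c. RPB2 coverage in them was 3.38, 4.64, 5.70, 3.31 and 10.8, all below the 18.9 at Klrb1c. RPB2 over mean Pol III was 0.246 and 0.236 at Klrb1c in the 2 RPB2 libraries, and 0.0351 to 0.0943 in the others. No test was made of this, since the same 2 libraries supply every value.

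The long region of the middle pair had the shape of the Klrb1c stretch in part. Its left Pol III maximum corresponded to bases 377, 373, 363 and 371 of Klrb1c, against its own 368 to 380. On the right it corresponded to bases 907, 1013, 900 and 895, so only RPC1 replicate 2 had it on the right of the repeat block as at Klrb1c. H3K4-titled coverage had its maximum at corresponding bases 667 and 672, against 669 and 677 at Klrb1c. The RPB2 maximum there was 13.4 and 13.9 after smoothing, at corresponding bases 897 and 1031, against 89.8 and 82.6 at Klrb1c. Pol III and RPB2 positions differed by 33.75 bp in that region and overlapped.

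H3K4-titled coverage was uneven over the 6 regions. It was 66.1 and 84.2 at Klrb1c, 83.1 and 117.2 in the long region of the middle pair, 33.0 and 57.7 in that of the far pair, and 64.7 and 113.3 in the shorter region of the far pair. It was low in the neighbour (7.37 and 10.9) and in the shorter region of the middle pair (3.03 and 4.39). Both stretches of 600 bp or longer with more H3K4-titled coverage than Klrb1c belong to these 6.

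In the neighbour, Pol III and the H3K4-titled libraries were both above input, although H3K4-titled coverage was low beside that at Klrb1c. Its RPC1 coverage was 50.4 and 37.6 and its RPC4 coverage 77.2 and 89.8, with RPB2 at 3.25 and 3.51. Against input, Pol III was 5.81 higher on the log2 scale (limma adjusted p = 4.23e-10; 0.80 with file totals, adjusted p = 0.00974). RPB2 was 1.92 higher by the background scaling (adjusted p = 0.000221), and at -0.23 with file totals did not pass (adjusted p = 0.457). H3K4-titled coverage was 6.13 higher (adjusted p = 1.64e-09), and with file totals 0.58 (adjusted p = 0.0613). Pol III was highest at bases 576 and 573 in the RPC1 libraries and at 376 and 377 in the RPC4 libraries, and all 4 dipped in bases 501 to 550 relative to the bins on either side. H3K4-titled coverage had maxima further out, of 21.4 in bases 301 to 350 and 16.1 in bases 701 to 750, with 0.93 in bases 501 to 550.

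Reads from such copies may be placed at more than 1 of them. Of the 1095 words of 76 bases, a read length, in the Klrb1c stretch, 121 (11.1%) also occur in another of the 6 regions. Fractional coverage (more than 1e-06 from a whole number), as reads divided among several places would give, covered 19.9% to 23.7% of the Klrb1c bases in the Pol III libraries and 21.1% and 21.6% in the RPB2 libraries, and 0% at Zfp259. The part of such reads in the levels at Klrb1c was not tested.

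**Figure D5:**
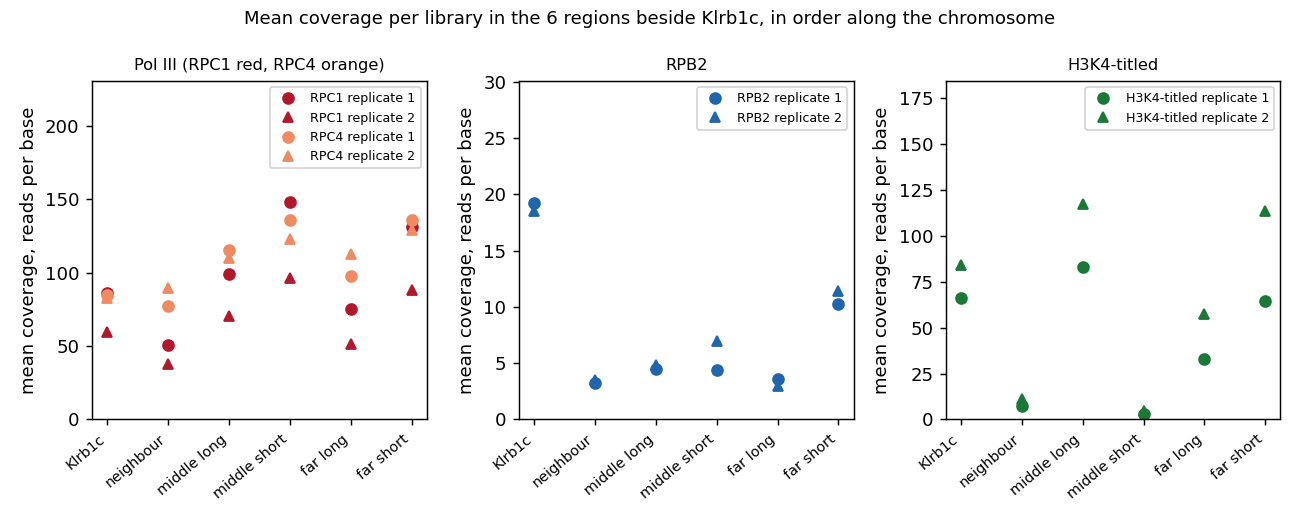
Mean coverage (y, reads per base, from 0) per library in the 6 regions beside Klrb1c, in order along the chromosome (x), in separate panels for Pol III, RPB2 and H3K4-titled libraries. RPB2 is highest at Klrb1c (19.2 and 18.5) although 4 of the other 5 regions have more Pol III.

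Promoter motifs were searched on both strands over the full length of both stretches. The shares beside them are for the central 300 bp of all 532 stretches, a shorter window. The full B box (in 28.4% of stretches) and its core GTTCGANNC (46.1%) had 0 matches in either stretch, as had TATAAA (17.7%). The A box, which 90.8% of stretches hold, matched at bases 208 and 467 of Zfp259 on the minus strand, once in each repeat block. It matched in Klrb1c at bases 512 and 1082 on the plus strand and at 312 and 982 on the minus strand, the last of these at the right Pol III peak. A looser core, GTTCNANNC (77.8% of stretches), was added after the letters had been seen, and it overlaps the stricter core. It matched at bases 157 and 424 of Zfp259 on the minus strand, again once in each block, and at base 796 of Klrb1c. Within the central 300 bp alone, the A box had 1 match in each stretch. The looser core had 1 match there in Zfp259 and 0 in Klrb1c. A run of TTTT, the Pol III stop signal, occurred in 96.6% of stretches and in both of these.

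The Klrb1c stretch was rich in CG dinucleotides, with 60 in all and 29 in bases 391 to 780, where H3K4-titled coverage was highest. Its central 300 bp held 25, more than in 86.1% of stretches, against a median of 10. The central 300 bp of Zfp259 held 9. GC content was 49.7% for Klrb1c and 52.2% for Zfp259.

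The regions most like each stretch over the 12 libraries were found by the Pearson correlation of scaled log2 coverage. For Zfp259 these were chr15:31156256-31156801 in Dap (r = 0.970), chr14:55512250-55512734 in Pabpn1 and Gm20521 (r = 0.904) and chr8:19784551-19785003 in the pseudogene Gm10060 (r = 0.868). All overlap an annotated gene and had more RPB2 than Pol III: 13.7 against 4.83, 19.7 against 5.80, and 169.1 against 7.09. The region at Gm10060 also had input of 4.94, well above the median region's 1.03. For Klrb1c they were chr1:167571615-167572623 near Mpzl1 (r = 0.960), chr17:23683293-23684549 near Gm5146 (r = 0.958) and chr7:105963775-105964407 near Wnt11 (r = 0.954). None overlaps a gene, and their Pol III coverage of 79.5, 82.1 and 141.8 exceeded, without scaling, their RPB2 coverage of 11.1, 7.93 and 14.0. For both stretches, the order of Pol III and RPB2 in these regions follows in part from their choice, since both were among the libraries correlated.

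The depth over all stretches was 82276 to 160705 read equivalents in the Pol III libraries, 17033 and 26665 in the H3K4-titled, 14779 and 13848 in the RPB2, 3563 and 3365 in the input and 1754 and 1273 in the H3K36-titled libraries. Reads outside the deposited stretches are not known, so full library depth is not known either.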

How the data were processed

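The authors deposited coverage, a signal in reads per base, for 12 liver ChIP-seq libraries, on mm9 per the submitters' processing notes. The aligner, the read filter and any weighting: not given in the sources used here. From the values, 1 read adds 1.0 over 76 bp and depth was not scaled. Listed starts were taken as 1-based, since 358 of 364 stretches of single-gene length then hold paired gene ends at the set flank of 150 bp, against 155 otherwise. 1 X chromosome stretch that differed between files was left out.

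Each library was divided by its 10% trimmed mean (trim 0.1) over 111 regions, the 25% with least Pol III coverage without the 2 stretches. log2(coverage + 0.353), the 5th percentile of nonzero values as pseudocount, was fitted with limma 3.58.1 (R 4.3.3) over 397 of 442 regions (0.1 quantile filter), 6 groups, 12 libraries, two-sided, Benjamini-Hochberg, threshold 0.05. Fold changes on this scale are understated for low regions. Median positions were fitted likewise over 250 stretches with at least 5 read equivalents in each Pol III, RPB2 and H3K4-titled library; a library under 1 read equivalent in a stretch enters as missing. The functions were tested on simulated data. Genes came from GENCODE vM1 on NCBIM37 (mm9). Named genes are those overlapping a stretch or with a start within 50 kb, and the 3 regions most alike by correlation. The members, lists and motifs were chosen with earlier results of these data known. Alternatives were other scalings, pseudocount, filter, position measures, a replicate block and leaving out each library.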

Additional observations from a re-analysis of the deposited data

Results flagged for a closer look

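Among the 4 Pol III libraries, RPC1 replicate 2 lay apart from the others in mean coverage at Klrb1c, at 59.7 reads per base against 83.0 to 85.9. The gap to its nearest neighbour was 0.887 of the range, above Dixon's 95% critical value for 4 samples. Chance alone marks about 1 in 20 such groups, and 8 were examined. After division by background coverage it was no longer the outlying library. This library also has the least depth of the 4, with 82276 read equivalents over all stretches, and its part in the value was not tested.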

How the results depend on the processing

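Scaling decided several level comparisons, and the cause was not tested. With file totals, Pol III against input at Zfp259 was -2.70 (log2), H3K4-titled against input there 0.72 (no longer past the threshold) and RPC1 against RPC4 0.040, and H3K36-titled against input at Klrb1c was -1.39 and passed. The untested values became 5.22 (RPB2 at Zfp259) and 3.64 (H3K4-titled at Klrb1c). With median-of-ratios scaling, Pol III at Zfp259 was -1.48, H3K36-titled 0.13, RPC1 against RPC4 0.037, RPB2 6.18, and H3K4-titled at Klrb1c 5.42. With coverage as deposited, H3K36-titled against input passed at -1.39 (Zfp259) and -1.84 (Klrb1c), RPC1 against RPC4 at Klrb1c was -0.22 and H3K4-titled there 6.07. With the anchor on the 50% of regions lowest in Pol III, H3K4-titled at Klrb1c was 8.14 and RPC1 against RPC4 at Zfp259 0.0044. Pol III and RPB2 at Klrb1c were higher than input, past the threshold, under every setting run.

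By coverage-weighted mean position, Pol III minus RPB2 at Klrb1c was -156.2 bp, H3K4-titled minus RPB2 -85.1 bp (both passed) and the latter at Zfp259 13.6 bp. By the smoothed maximum, Pol III minus RPB2 was -4 bp at Klrb1c and -140 bp at Zfp259, and H3K4-titled minus RPB2 -315.5 and -174.5 bp, none of which passed. H3K4-titled minus RPB2 at Klrb1c passed at -258.5 bp with input subtracted and at -253.5 bp with only the groups compared or with a replicate block.

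Leaving out each library in turn, RPC1 against RPC4 ran from -0.61 to 0.17 at Zfp259 (above 0 without RPC1 replicate 2) and from -0.021 to 0.38 at Klrb1c (below 0 without RPC1 replicate 1). H3K36-titled against input at Zfp259 ran from -0.83 to 0.40 and changed sign without H3K36-titled replicate 2 or input replicate 1. H3K4-titled minus RPB2 position ran from -9 to 5 bp at Zfp259 (above 0 without H3K4-titled replicate 1) and from -264 to -243 bp at Klrb1c, where it passed without either RPC1 library. Pol III minus RPB2 position at Zfp259 ran from -50 to -11.5 bp, and at Klrb1c it ran from -297.75 to -140.25 bp and passed without RPC1 replicate 2. The other calls held.

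Same-numbered libraries did not deviate together (correlations of replicate differences from -0.121 to 0.0704 over 15 pairs of groups, 0 above 0.1). Low correlations do not show that the libraries are unpaired, and whether equal numbers share mice or a time is not given. The replicate block changed no level call (Pol III at Zfp259 2.20, adjusted p = 3.4e-05 by limma) and, of the position calls, only H3K4-titled minus RPB2 at Klrb1c (-253.5 bp, adjusted p = 0.0399). H3K36-titled libraries held 1 to 4 reads at either stretch.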
